A study of Gallus gallus with 16 samples.

Results

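The genes examined here belong to the ubiquitin-proteasome system of the chicken. They were taken from the list of differentially expressed genes that the study published for this same contrast, by symbols that begin with UBE, UBR, USP, PSM, FBX, RNF, TRIM, CUL or KLHL. Of 25 such symbols, 19 had a row among the 17854 loci of the deposited count table. The other 6 (RNF150, RNF152, FBXO7, USP12P1, USP36 and UBE2C) had none and are only named. The rule also asked for 10 counts or more in whichever line was higher. No gene was lost to this minimum, since the smallest of the higher counts was 27.1 (UBE2B) and the next 36.6 (RNF208). The difference between the lines was thus used to choose the genes, and their HG/LG ratios, and whether each passed the test run over all loci, are given as a description only.

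Abdominal fat was collected at 7 wk from 4 high-growth (HG) and 4 low-growth (LG) cockerels, with 2 sequencing lanes per bird. Both lines are meat-type *Bresse-Pile* chickens, selected in opposite directions on body weight as juveniles and as adults. Cockerels of both lines were vaccinated against Marek's disease virus at hatching, and no drug or transgene is described. The birds were fed and the lines shared pens after the first weeks, in which they were housed apart and the LG birds received crushed pellets, so line and early housing cannot be told apart. The line was taken from the sample titles, because another field of the labels gives HG for all 16 samples. The comparison addresses which genes differ in fat between lines that differ in growth and fatness.

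Ubiquitin is a small protein that is attached to other proteins as a tag. An activating enzyme (E1) passes it to a conjugating enzyme (E2), and a ligase (E3) selects the substrate; deubiquitinases remove or trim the tag, and the 26S proteasome degrades many tagged proteins. The E3s include single proteins with a RING domain and modular complexes built on a cullin, in which F-box or Kelch-like (KLHL) proteins hold the substrate. In fat cells this system sets the lifetime of lipogenic enzymes, transcription factors and lipid droplet proteins.

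The deposited table gives 1 estimated count per gene and line over the 4 birds, with a model variance, so no bird's own value was analysed here. The column total was 4421254 for HG and 3365950 for LG. The study reports more mapped reads for each single bird than either total. A deposited count is therefore not read here as the number of reads behind a gene. The log2 HG/LG ratio was taken from the counts with a pseudocount of 1, and its 95% interval from the deposited variances. These intervals are not adjusted for the number of loci. How many of all loci have an interval that excludes 0 or the median was not counted. Whether an interval excludes either value is therefore a description of that gene only. The median ratio of the 10484 loci tested was 0.26 rather than 0, and 75.3% of these loci had the higher count in HG, so ratios are also read against that median gene. Counts were not divided by gene length, and levels of different genes are therefore not compared. Where the line is not named, the HG count is given first.

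Of the 19 genes, 15 had the higher count in HG and 4 in LG, and the same 15 and 4 lay above and below the median gene. The median ratio of the 19 was 0.69, with a range from -0.82 to 1.37. Among all 1364 genes with a symbol from the published list that could be tested, 64.3% had the higher count in HG and the median ratio was 0.68. The symbols came from the part of that list at hand, whose last 100 identifiers with a row had a median ratio of -1.07, 99 of them higher in LG. Genes further along that list were not analysed here. The split of 15 against 4, and the direction of the larger differences below, therefore describe these genes and not the family. By prefix, all 4 USP genes and all 3 PSM genes had the higher count in HG, whereas 3 of 4 RNF genes had the higher count in LG. The FBX genes were split with 2 in HG and 1 in LG, and the single UBE, UBR, TRIM, CUL and KLHL genes were all higher in HG. Differences of at least 2-fold were found for 4 genes (UBE2B, TRIM2, RNF170 and FBXW4), all in favour of HG, with the counts as deposited and no pseudocount, beside 10.1% of the loci tested in either direction. This depended on the scaling: after centring on the median gene 2 remained in HG (UBE2B and FBXW4) and RNF19A was added in LG, beside 9% of the loci, and after scaling by column totals 1 remained in HG (UBE2B) with RNF19A in LG, beside 9.41%.

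**Figure D1:**
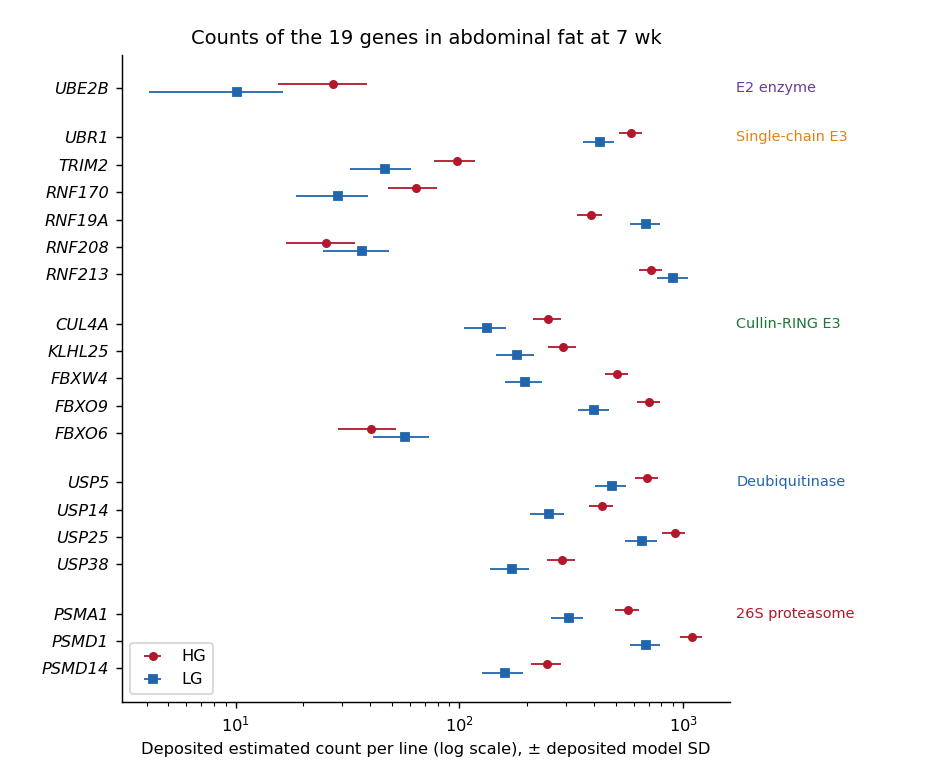
Deposited estimated count of each of the 19 genes in HG (red circles) and LG (blue squares) on a log axis, with bars for 1 deposited model SD. The counts run from 10.2 to 1092, and the bars of the 2 lines overlap for 4 genes, UBE2B, RNF208, RNF213 and FBXO6; the bars are apart for the other 15, which were chosen on this contrast, and for 22.8% of all loci tested.

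A test was run on all loci at once, in which the log ratio was set against its standard error from the deposited variances and adjusted by the Benjamini-Hochberg method. To pass, a locus needed an adjusted p no higher than 0.05 and a 1.2-fold difference. This was met by 307 loci, or 2.93% of those tested (2.07% with HG higher, 0.858% with LG higher). Of the 1364 genes with a symbol from the published list that could be tested, 180 passed (13.2%). Of the 19 genes, 18 were tested and 1 passed, FBXW4 as higher in HG. After centring on the median gene 2.18% of loci passed (0.992% with HG higher, 1.19% with LG higher), FBXW4 and RNF19A among them, the latter with LG higher. With the deposited variance divided by 4, as for the variance of a mean over 4 birds, 27.1% of all loci passed (22.2% with HG higher, 4.87% with LG higher) and 15 of the 18 genes did, 14 with HG and 1 with LG higher. Since the genes had been chosen on this contrast, nothing is read from these counts beside the background. The study's own test, with the same limits on adjusted p and fold, had listed all 19 genes as differing. A gene that did not pass here is therefore not one that the study found unchanged.

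The proteasome consists of a 20S barrel, in which proteins are cut, and a 19S cap that binds, unfolds and deubiquitinates them. PSMA1 (ENSGALG00000006022), a subunit of the alpha ring that gates the barrel, had counts of 565 ± 67 (deposited model SD) in HG and 307 ± 51 in LG. Its log2 ratio was 0.88 (95% interval 0.30 to 1.45), but the count in LG carries the status FAIL of the authors' model, so PSMA1 was not tested. PSMD1 (ENSGALG00000007664), the large scaffold subunit of the base of the cap, had counts of 1092 ± 128 against 682 ± 105 (log2 ratio 0.68, 95% interval 0.13 to 1.23). Both subunits were thus higher in HG with intervals that exclude 0, and only that of PSMA1 also excludes the median gene. The interval of PSMA1 rests on the LG estimate with status FAIL and is given with that limit. PSMD14 (ENSGALG00000011128), the metalloprotease of the lid that cuts ubiquitin chains off as a substrate enters, had counts of 246 ± 38 against 159 ± 34 (log2 ratio 0.62, 95% interval -0.11 to 1.36). The 3 ratios lay between 0.62 and 0.88, a span narrower than any of their intervals. ADRM1, the ubiquitin receptor of the cap that also docks a deubiquitinase, is not among the 19 by its symbol. Its counts were 315 in HG and 174 in LG, with a ratio of 0.85 (95% interval 0.14 to 1.56). The 4 proteasome genes with a symbol at hand and a count therefore all had the higher count in HG. For the 3 PSM genes the difference was 1.54-fold to 1.84-fold. None of the 3 tested (PSMD1, PSMD14 and ADRM1) passed over all loci. Only 1 of 8 alpha subunits and 3 of 13 non-ATPase subunits of the cap had a symbol, all from the study's list of differing genes. The other subunits were not looked up. No symbol was at hand for the 7 beta subunits or the 6 ATPases of the cap. NFE2L1, a transcription factor that induces proteasome genes in mammals, had a deposited count of 0 in both lines. Its symbol comes from the study's own list of differing genes, so this 0 is not read as absent expression.

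The deubiquitinases of the USP family are cysteine proteases. USP14 (ENSGALG00000014920), which sits on the proteasome cap and trims chains there, had counts of 433 ± 54 in HG against 250.3 ± 43.7 in LG (log2 ratio 0.79, 95% interval 0.18 to 1.39). USP38 (ENSGALG00000009886) had counts of 287 ± 41 against 171 ± 34 (log2 ratio 0.74, 95% interval 0.06 to 1.42). These 2 had higher counts in HG with intervals above 0. USP5 (ENSGALG00000014525), which takes apart free ubiquitin chains and so returns single ubiquitin to the pool, had counts of 692 ± 81 against 479 ± 75 (log2 ratio 0.53, 95% interval -0.02 to 1.08). USP25 (ENSGALG00000015693), known in mammals from immune signalling and from protein degradation at the endoplasmic reticulum, had counts of 916 ± 108 against 656 ± 104 (log2 ratio 0.48, 95% interval -0.08 to 1.04). For USP5 and USP25 the intervals include 0, and relative to the median gene their ratios were 0.27 and 0.22. All 4 intervals of the USP genes include the median gene, and none of the 4 passed. UCH-L1, a deubiquitinase of another family that is typical of neurons, had counts of only 11.3 and 1.90 (log2 ratio 2.09, 95% interval 0.10 to 4.09) and did not pass.

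**Figure D2:**
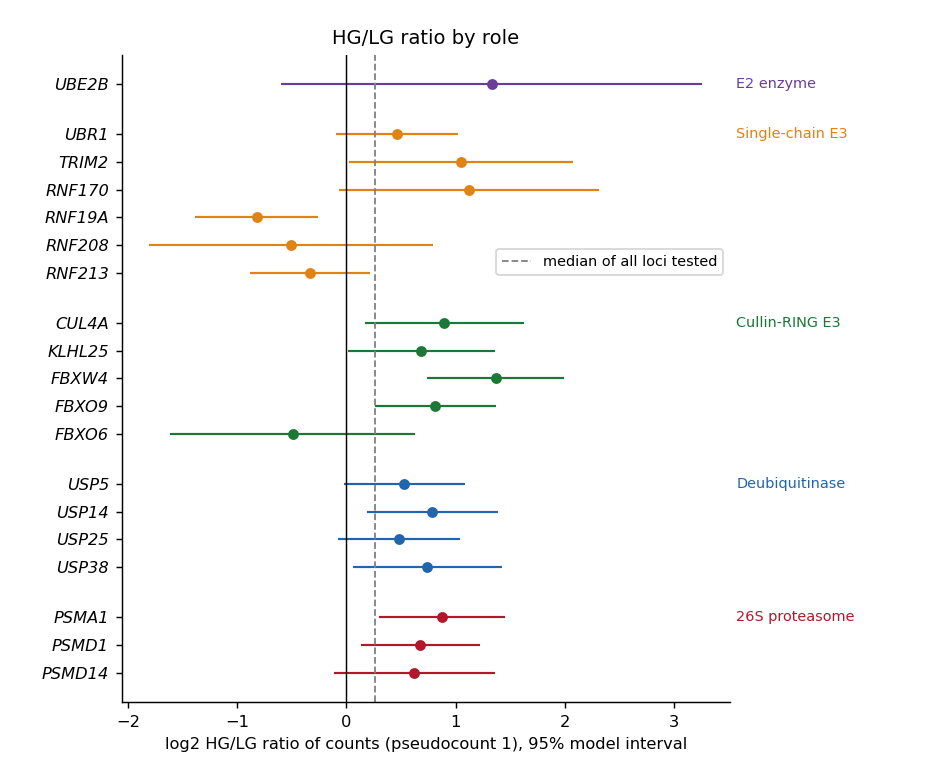
Log2 HG/LG ratio of each gene (pseudocount of 1, as deposited) with its 95% interval from the deposited variances, arranged by role; the dashed line is the median of all loci tested at 0.26. All proteasome and deubiquitinase genes lie to the right of the dashed line, and RNF19A, RNF208, RNF213 and FBXO6 lie to the left of 0.

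Among the cullin-RING ligases was the gene with the largest ratio of the 19 at a pseudocount of 1, while without a pseudocount UBE2B was above it (1.42 against 1.37). FBXW4 (ENSGALG00000007715), an F-box protein with WD repeats named in humans and mice from a limb malformation locus, had 508 ± 61 counts in HG against 196 ± 37 in LG. Its log2 ratio was 1.37 (95% interval 0.74 to 2.00), or 1.11 relative to the median gene, and 97.4% of the loci tested had a lower ratio. It passed with the counts as deposited and after centring, but not after scaling by column totals. FBXO9 (ENSGALG00000016320), an F-box protein that in human cells directs the degradation of mTOR regulators, had counts of 706 ± 82 against 401 ± 64 (log2 ratio 0.81, 95% interval 0.26 to 1.37). CUL4A (ENSGALG00000016830), the cullin that with DDB1 builds ligases of DNA repair and replication, had counts of 249 ± 37 against 133 ± 29 (log2 ratio 0.90, 95% interval 0.17 to 1.63). KLHL25 (ENSGALG00000006826) is a substrate adaptor for CUL3 that in mammalian cells targets ATP citrate lyase, the enzyme that supplies acetyl-CoA for fatty acid synthesis. Its counts were 290.0 ± 40.6 and 180.0 ± 34.9, a ratio of 0.69 (95% interval 0.01 to 1.36). In these 4 genes the lower bound was above 0, and those of FBXW4 and, only just, FBXO9 were also above the median gene. FBXO6 (ENSGALG00000004646), which binds the sugar chains of misfolded glycoproteins drawn back from the endoplasmic reticulum, went the other way. Its counts were 40.4 ± 11.7 in HG and 57.2 ± 16.3 in LG, with a ratio of -0.49 (95% interval -1.62 to 0.63) that includes 0. Of the 25 cullins and core partners listed, 3 had a symbol and a row, and all 3 had the higher count in HG. Beside CUL4A these were SKP1, the adaptor that joins F-box proteins to CUL1, with counts of 1503 and 953 (ratio 0.66, 95% interval 0.10 to 1.21), and CAND1, which exchanges F-box modules on CUL1, with 1111 and 825 (ratio 0.43, 95% interval -0.12 to 0.97). COPS8, a subunit of the COP9 signalosome that strips NEDD8 from cullins, had counts of 144 and 90.1 (ratio 0.67, 95% interval -0.18 to 1.52). None of SKP1, CAND1 and COPS8 passed.

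The E2 enzyme and the single-chain E3s were divided between the lines. UBE2B (ENSGALG00000006435), a homologue of yeast Rad6 that works in DNA repair and with N-recognins, had only 27.1 ± 11.7 counts in HG against 10.2 ± 6.1 in LG. Its ratio of 1.33 has a 95% interval from -0.60 to 3.26, the widest of the 19, and was 0.88 with a pseudocount of 10. UBE2B also has a close paralogue, UBE2A, and how reads common to both were counted is not given in the sources used here. UBR1 (ENSGALG00000009249), an N-recognin that marks proteins by their first residue, had counts of 587 ± 69 against 425 ± 67 (log2 ratio 0.46, 95% interval -0.09 to 1.02). TRIM2 (ENSGALG00000009207), an E3 that in mouse neurons binds the light neurofilament protein, had counts of 97.1 ± 20.5 against 46.4 ± 14.1 (log2 ratio 1.05, 95% interval 0.02 to 2.08). RNF170 (ENSGALG00000015386), an E3 of the endoplasmic reticulum membrane that degrades activated inositol trisphosphate receptors, had counts of 63.7 ± 15.8 against 28.8 ± 10.2 (log2 ratio 1.12, 95% interval -0.07 to 2.31). TRIM2 and RNF170 had counts over 2-fold higher in HG, at counts where the deposited SD was 21.1% to 35.6% of the count.

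The 3 RNF genes with the higher count in LG differed in the size of their counts. RNF19A (ENSGALG00000016041), an E3 of the RING-between-RING type first described under the name dorfin, had 386 ± 49 counts in HG against 684 ± 106 in LG. Its log2 ratio was -0.82 (95% interval -1.39 to -0.26), or -1.08 relative to the median gene, and 4.85% of the loci tested had a lower ratio. It was the one gene of the 4 higher in LG with an interval that excludes 0, and it passed after centring and after scaling by column totals but not with the counts as deposited. RNF213 (ENSGALG00000006988), a very large E3 with an ATPase motor that is found on lipid droplets in mammalian cells and is a susceptibility gene of moyamoya disease in humans, had counts of 718 ± 84 and 905 ± 142. Its ratio was -0.33 (95% interval -0.89 to 0.22), and -0.59 relative to the median gene, which lies outside the interval. RNF208 (ENSGALG00000008911) had counts of 25.4 ± 8.7 against 36.6 ± 12 (log2 ratio -0.51, 95% interval -1.81 to 0.79), too wide to place it on either side.

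**Figure D3:**
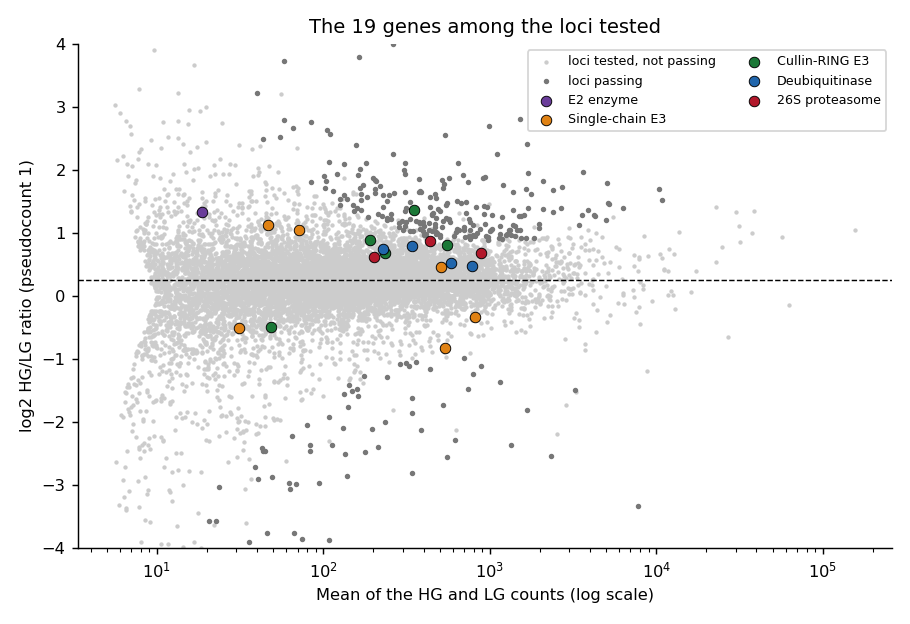
Log2 HG/LG ratio (pseudocount of 1) against the mean of the 2 counts (log axis) for the 10484 loci tested, with loci that passed in dark grey, the 18 genes tested and PSMA1 coloured by role, and the median ratio of 0.26 as a dashed line. The ratio axis ends at 4 and -4, which leaves out 59 loci; the coloured genes lie inside the cloud of loci that did not pass, apart from FBXW4 among the passing ones.

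RNF213 was examined with genes known to be induced by interferon, among which it is counted in mammals. Of 24 genes in this list, 6 had a symbol and a row, and all 6 had the higher count in LG. The median ratio was -0.62 against 0.26 for all loci tested. SAMD9L, an antiviral protein, had counts of 107 and 206 (ratio -0.94, 95% interval -1.72 to -0.17), and ZNFX1, a helicase that senses viral RNA, had 605 and 912 (ratio -0.59, 95% interval -1.15 to -0.03). The intervals of these 2 exclude 0. Those of RSAD2 (ratio -1.06), PARP12 (-0.65), DHX58 (-0.35) and RNF213 include it. None of the 6 passed with the counts as deposited, and none after centring, while SAMD9L and ZNFX1 passed after scaling by column totals. UBE2C, the E2 of the anaphase-promoting complex, had no row, but CDC20, the activator of that complex, had counts of 26.2 and 42.1 (ratio -0.66, 95% interval -1.94 to 0.61). All 4 cell division genes with a row, MCM3, NUSAP1, KIF20A and RRM2, had the higher count in LG, with ratios from -0.31 to -0.79, and every interval includes 0. The study picked all these list genes on the same birds, and their directions are therefore no independent evidence.

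**Figure D4:**
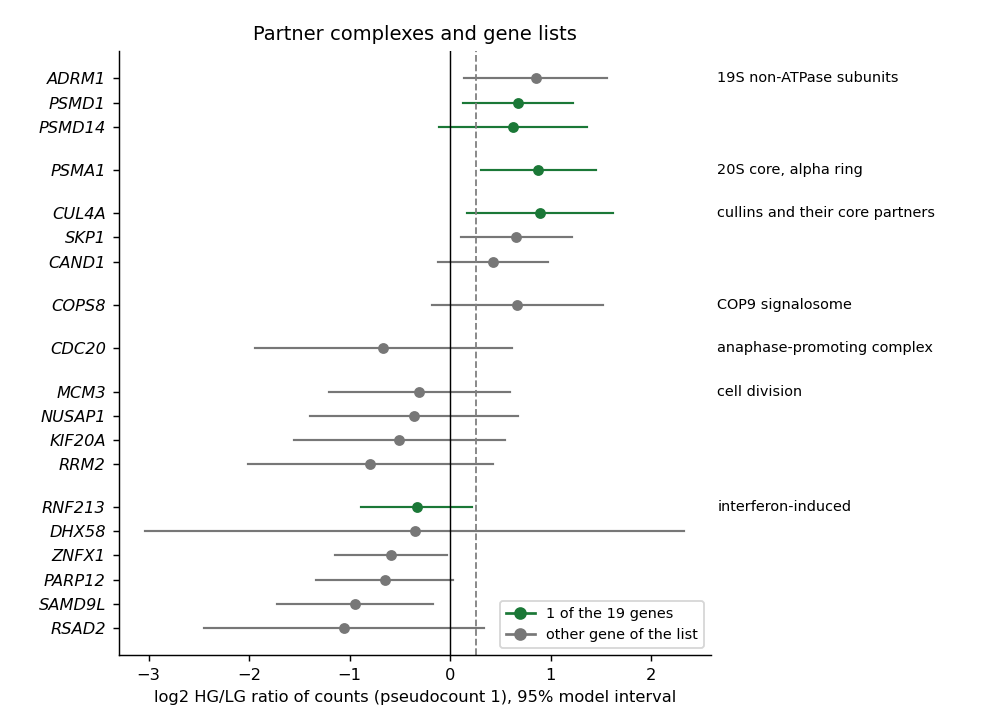
Log2 HG/LG ratio with its 95% interval for the genes of 7 lists that had a symbol and a count, with the 19 genes in green and the others in grey; the dashed line is the median of all loci tested. Proteasome, cullin and COP9 signalosome genes lie to the right of 0 and anaphase-promoting complex, cell division and interferon-induced genes to the left. The lists of N-recognins, other deubiquitinases and protein degradation at the endoplasmic reticulum are not drawn. The last of these was split, with RNF170 higher in HG and FBXO6 higher in LG.

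Some members are neighbours of other listed genes in the RefSeq order of chicken genes (assembly GRCg7b, used for names and order only). Of 3 adjacent genes with a symbol and a row, 2 are described here, so no balance of directions is given. HOOK3, which links cargo to the dynein motor and lies next to RNF170, had counts of 139 against 52.3 (log2 ratio 1.39, 95% interval 0.44 to 2.35). It had the same direction as RNF170. ANKRD46, next to RNF19A, had counts of 127 and 76.2 (ratio 0.73, 95% interval -0.16 to 1.62) and lay on the other side from RNF19A.

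The error behind these values is that of the authors' model. The part of the deposited variance assigned to the spread between replicates followed the count so closely that it lay within 5% of the running median of loci of like count at 89.5% of the loci tested in HG and 88.9% in LG, and for 18 of 18 members tested in both lines. A member's SD therefore says what is usual for its count, not how far its own birds lay apart. It ran from 11.6% of the count (FBXO9) to 43.0% (UBE2B) in HG and from 15.5% (PSMD1) to 59.6% (UBE2B) in LG, with medians of 12.8% and 18.8%. In 15 of the 19 genes in HG, and in 15 in LG, the whole variance was the replicate part to within 0.1%. The same held for 69.0% of all loci tested in HG and 69.2% in LG. The exceptions were UBE2B, USP25 and PSMD14 in both lines, PSMD1 in HG and PSMA1 in LG. For PSMA1 in LG, with status FAIL, the variance was below the replicate part, at 0.953 times. For UBE2B the variance was 1.60 times the replicate part in HG and 1.41 times in LG. The part deposited for uncertain assignment of reads was 0 apart from rounding in all 19 genes, at most 8.94e-16% of the variance in HG and 1.21e-15% in LG. It therefore does not account for the rest of the variance of UBE2B, and it is not read as certain assignment. The same share over all loci is not given here, so this is not a trait of these genes.

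**Figure D5:**
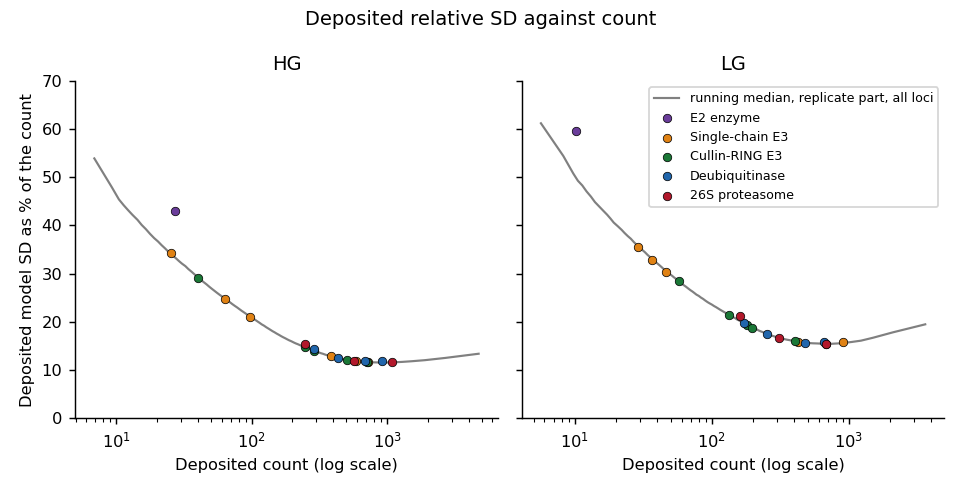
Deposited model SD as a percent of the count, against the count on a log axis, in HG (left) and LG (right); points are the 19 genes by role and the line is the running median of the replicate part over the loci tested. All points lie on or close to the line except UBE2B, at 43.0% and 59.6%.

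Markers of the tissue and of other cells could be read only through listed genes. Of 10 adipocyte markers 3 had a row: SCD with counts of 26156 and 162, PPARG with 1774 and 910, and PNPLA2 with 5366 and 12188; adipocyte genes were thus present in both lines. Of 13 skeletal muscle markers 6 had a row and 5 had counts, all 5 higher in HG, with a sum of 1428 in HG and 534 in LG, of which ACTA1 made up 1144 and 526. In the deposited counts TNNC2 was at 0 in both lines and MYBPC1 at 0 in LG. The study lists TNNC2 among its top genes higher in HG, so a 0 in these counts is not read as absent expression. The 3 endothelial markers with a row (CDH5, EGFL7 and FLT4, of 8) were also all higher in HG, with a sum of 5214 against 3032. Of 11 macrophage and leukocyte markers 2 had a row, CSF1R with 2318 and 1401 and CD3E with 114 and 133. SERPINC1, the 1 hepatocyte marker of 12 with a symbol at hand, had counts of 4.40 and 64.7. The other hepatocyte markers, among them ALB and FGA, had no symbol at hand and were not looked up. The study gives ALB and FGA among its top genes higher in LG. WT1, the 1 mesothelial or epithelial marker of 8 with a symbol at hand, had 49.9 and 96.1. No red blood cell marker had a symbol at hand, so none could be looked up, SLC4A1 included, which the study reports as higher in LG. The part of these cells in the ratios of the 19 genes was not tested. In whole tissue, fewer cells of a type and less RNA per cell cannot be told apart.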

How the data were processed

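RNA-Seq reads of 4 HG and 4 LG birds (16 samples, 2 lanes per bird) were processed by the authors. The table used here holds estimated counts that the authors deposited, 1 per gene and line, with model variances. The submitters' processing notes name TopHat 1.3.3, Bowtie 0.12.7 and Cuffdiff 2.0.2, and the methods add trimming, transcript assembly and the Galgal4 genome. For assembly and quantitation the methods name Cufflinks with a lower version number than the notes give for Cuffdiff. How the published list relates to this table is not given in the sources used here. TNNC2 and NFE2L1 are on the list but have counts of 0 in both lines here, so the list was not made from these counts alone. Of its 1993 identifiers at hand, 1511 had a row. The scaling between lines, and whether a variance is that of 1 library or of a mean, are not given in the sources used here. Precision is that of the deposited variances; intervals do not cover scaling.

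Loci with status OK in both lines, both counts above 0 and the higher count at least 10 were tested (10484). The natural log of the count ratio, without pseudocount, was divided by its standard error (delta method), read as a two-sided normal deviate, with Benjamini-Hochberg adjustment over all these loci. It is a model-based test; no test across birds is possible with 1 value per line. It was run on simulated data whose spread followed the trend of the deposited variance with count. That run therefore cannot show whether the deposited variances are right. Printed ratios and intervals have a pseudocount of 1.

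Symbols came from the first 1998 rows of the study's published list for this contrast (1993 identifiers, 1511 with a row, 1420 of these with a symbol), and only its symbols were used. The reference table did not pair Ensembl identifiers with symbols, so pathway genes outside that list, a planned comparison, could not be named. The members and gene lists were chosen with earlier results of these data known. All 19 members are named, with the highest and lowest ratio of each list among genes with a count of 100 or more; other list genes were named after their values were seen. Alternatives were centring on the median, column totals, other count and fold minimums, other readings of the variance, other pseudocounts and, added after seeing the data, every status. Python 3.11.15, numpy 2.4.6, pandas 2.3.3, scipy 1.17.1 and matplotlib 3.10.9 were used. 1 gene adjacent to a member is not reported here.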

Additional observations from a re-analysis of the deposited data

How the results depend on the processing

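The 15 and 4 directions of the genes were kept under centring, column totals and pseudocounts of 0 and 10 in all 76 values computed. Of these values 14, all under column totals, shifted by more than the standard error of the ratio. With a fold of at least 1.2 required, 15 genes were higher in HG as deposited, 13 after centring and 11 after column totals. In LG there were 4 each time. With a fold of at least 2 required, 4 genes were higher in HG and 0 in LG as deposited. In alternatives chosen after seeing the data, these numbers were 2 and 1 after centring, and 1 and 1 after column totals. The number of loci and of the 18 genes tested that passed depended on the scaling and on how the deposited variance is read. After centring, 104 loci passed as higher in HG, and 2 of the genes passed, 1 of them as higher in LG. After scaling by column totals, 236 of the 10484 loci passed, 163 with LG higher and 73 with HG higher. Among the genes 1 (RNF19A) passed in LG and 0 in HG. Of the 15 other genes of the pathway lists that were tested, 2 passed, against 0 with the counts as deposited. With the variance divided by 4, 2841 of the 10484 loci passed, 2330 as higher in HG and 511 in LG. So did 15 of the 18 genes tested (14 in HG and 1 in LG) and 10 of the 15 other list genes tested. A count minimum of 50 or none, Poisson variance added, no fold minimum and every status each left these counts within 1.5 times. No paired analysis was possible because the table holds 1 value per line, and leaving out birds was not possible for the same reason. The planned count of pathway genes outside the published list was not run, since no symbols were at hand for them.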
